A study of Sus scrofa with 5 samples.

Results

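PAX6, EYA1, EYA2, SIX4, DLX5, NEUROG1, EBF1, TLX1 and IRX1 are 9 genes of 30029 in the count files, all of them transcription factors or cofactors known from cranial placodes and the sensory neurons that leave them. They were chosen by their measured values in these cells: what was set for them is their level and their co-detection in cells with at least 3 UMIs (unique molecular identifiers, 1 per counted RNA molecule) of THSD7B, 15 of CRABP1, 4 of TP63 or 10 of GABRP. Their levels across those groups are therefore a description, with no test. The study made blastoids, embryo-like structures, from pig (Sus scrofa) embryonic stem cells (pESCs). Day 6 blastoids in iBlastoid medium, hand-picked for an inner cell mass-like part, a trophectoderm-like part and a cavity, were pooled, dissociated and sequenced in 2 droplet libraries of 1 condition, and pESCs in 4FIXY medium, grown over mouse feeder cells per the methods, gave 3 bulk columns of FPKM (fragments scaled to transcript length and to the fragments mapped). The labels do not say whether the 2 blastoid libraries came from separate cultures, and they do not tie the bulk columns, IVFP25, PA_4P7 and PAP25, to single samples. The methods derive pESCs from parthenogenetic blastocysts, but the labels do not explain the column names, so the columns may differ in line, origin or passage, and an SD over them covers whatever differs between columns.

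Cranial placodes are thickenings of the head ectoderm that give rise to the lens, the olfactory and inner ear epithelia and many cranial sensory neurons. Proteins of the SIX4 kind bind DNA and work with EYA cofactors in the preplacodal ectoderm, PAX6 and DLX5 act in the anterior placodes and in the edge of the neural plate, and IRX1 takes part in their patterning. NEUROG1 is a proneural bHLH factor that starts sensory neuron formation, EBF1 acts downstream of proneural factors in neurons that are differentiating, and TLX1 is a homeobox factor known from cranial sensory ganglia and the spleen.

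The libraries held 7369 and 8175 cells above the minimum of 11223 and 9805 UMIs, with a median of 29728 and 27588 UMIs, and they shared 9 cell barcodes (0.122% and 0.110% of cells). There were 61 and 62 THSD7B cells (0.828% and 0.758%), 299 and 458 CRABP1 cells, 1920 and 1651 TP63 cells and 1626 and 1517 GABRP cells. The cells past none of the 4 gates, 4305 and 5213, served as the reference. The gates overlap: 776 and 663 cells passed both TP63 and GABRP, and 15 and 13 of the THSD7B cells passed the GABRP gate. Further groups, with at least 5 UMIs of KCNAB1 or 10 of COL3A1 or POU5F1, lie mostly within the reference. It held 195 and 237 of 323 and 380 KCNAB1 cells, 515 and 392 of 646 and 436 COL3A1 cells and 438 and 714 of 509 and 797 POU5F1 cells. Levels below are CPM, the UMIs of a gene per 1e6 UMIs summed over the cells of a group, with the value of library 1 before that of library 2. CPM of different genes are not compared with each other, since the share of a transcript that is counted differs between genes. With 2 libraries of 1 condition, a mean ± SD covers the spread between these libraries only.

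The 9 genes lie on 7 chromosomes of Sscrofa11.1 (susScr11). PAX6 (chr2:28971565-29001149, + strand) and NEUROG1 (chr2:137763091-137766787, − strand) share chromosome 2, and EBF1 (chr16:64357999-64753188, + strand) and IRX1 (chr16:77695704-77701089, − strand) share chromosome 16. EYA1 spans chr4:63970939-64328107 and EYA2 chr17:48930682-49243789, both on the + strand. SIX4 (chr1:189670390-189682378) and DLX5 (chr9:76639915-76643689) lie on the − strand, and TLX1 (chr14:112206964-112213957) on the + strand. NEUROG1 is annotated with 1 exon, DLX5 and SIX4 with 3, TLX1 with 4, IRX1 with 5, PAX6 with 14, EYA2 and EBF1 with 16 and EYA1 with 18 in the longest transcript. EYA2, EBF1 and TLX1 each overlap 1 uncharacterized gene on the other strand, and no annotated gene overlaps the other 6.

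The starts of NEUROG1, EBF1 and TLX1 are shown, as the transcription factors whose levels are described first, from 250 bases before to 50 after the annotated gene start (RefSeq annotation of Sscrofa11.1). They are NEUROG1 (chr2:137766738-137767037, − strand), EBF1 (chr16:64357749-64358048, + strand) and TLX1 (chr14:112206714-112207013, + strand), read 5′ to 3′ on the gene's strand. Capitals mark E-boxes (CANNTG, the kind of site bHLH factors such as NEUROG1 bind).
NEUROG1: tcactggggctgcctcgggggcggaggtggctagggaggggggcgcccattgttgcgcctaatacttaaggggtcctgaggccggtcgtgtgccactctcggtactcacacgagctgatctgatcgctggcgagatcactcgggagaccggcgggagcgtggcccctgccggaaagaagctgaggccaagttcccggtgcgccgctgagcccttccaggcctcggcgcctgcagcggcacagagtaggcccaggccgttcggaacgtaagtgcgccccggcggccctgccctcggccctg
EBF1: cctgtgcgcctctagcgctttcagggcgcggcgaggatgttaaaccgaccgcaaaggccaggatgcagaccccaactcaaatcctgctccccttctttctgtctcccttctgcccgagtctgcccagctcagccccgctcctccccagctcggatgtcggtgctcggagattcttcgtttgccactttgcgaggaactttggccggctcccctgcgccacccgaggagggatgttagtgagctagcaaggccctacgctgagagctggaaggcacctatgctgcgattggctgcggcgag
TLX1: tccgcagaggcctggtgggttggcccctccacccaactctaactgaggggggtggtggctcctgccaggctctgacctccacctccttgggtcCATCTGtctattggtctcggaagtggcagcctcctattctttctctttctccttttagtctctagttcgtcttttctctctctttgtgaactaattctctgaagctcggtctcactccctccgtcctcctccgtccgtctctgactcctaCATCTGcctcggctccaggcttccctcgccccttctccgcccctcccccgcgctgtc

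The TLX1 window held 2 E-boxes, and none was found in the other windows shown. Not every gene's window is shown, so no contrast between groups of genes is drawn. Of 19556 windows of the same length at all coding genes with no unknown base, 67.8% held at least 1 E-box. Both of the TLX1 sites are of the CAGATG kind (CATCTG on the other strand), which 14.3% of all windows held and which counts among the E-boxes. A core of the EBF site, CCCNNGGG, which reads the same on both strands, was found in 19.9% of all windows and in none of these 3. The windows of NEUROG1 and EBF1 were rich in GC (69.0% and 62.0%), against a median of 58.7% over all windows. The data are counts per gene and do not show which start was used.

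Of the 9 genes, EYA2, NEUROG1 and EBF1 were at least 4-fold higher in THSD7B cells than in the reference in both libraries, where 1.44% of 18054 genes with at least 100 UMIs were. At least 2-fold, the count was again 3, with 4.20% of all genes. In CRABP1 cells 0 of the 9 were at least 4-fold higher and 0 at least 2-fold (1.06% and 4.29% of all genes). In TP63 cells the counts were 0 and 1, the latter TLX1 (0.305% and 2.18% of all genes), and in GABRP cells 0 and 1, TLX1 again (0.809% and 3.54% of all genes). The median of the lower of both libraries' folds over the 9 was 1.22 in THSD7B, 0.781 in CRABP1, 0.825 in TP63 and 0.743 in GABRP cells, beside 0.861, 0.973, 0.912 and 0.854 over all genes tested. The groups and genes were picked on these values, so nothing is read from the counts. In cells with at least 20000 UMIs the count in THSD7B cells was 2, since the lower fold of EYA2 came to 3.43, with NEUROG1 at 116 CPM and EBF1 at 276 CPM as means of both libraries. The 9 genes did not move as a set: a trio followed THSD7B, TLX1 was highest in the TP63 and GABRP groups, and SIX4 differed little between groups.

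**Figure D1:**
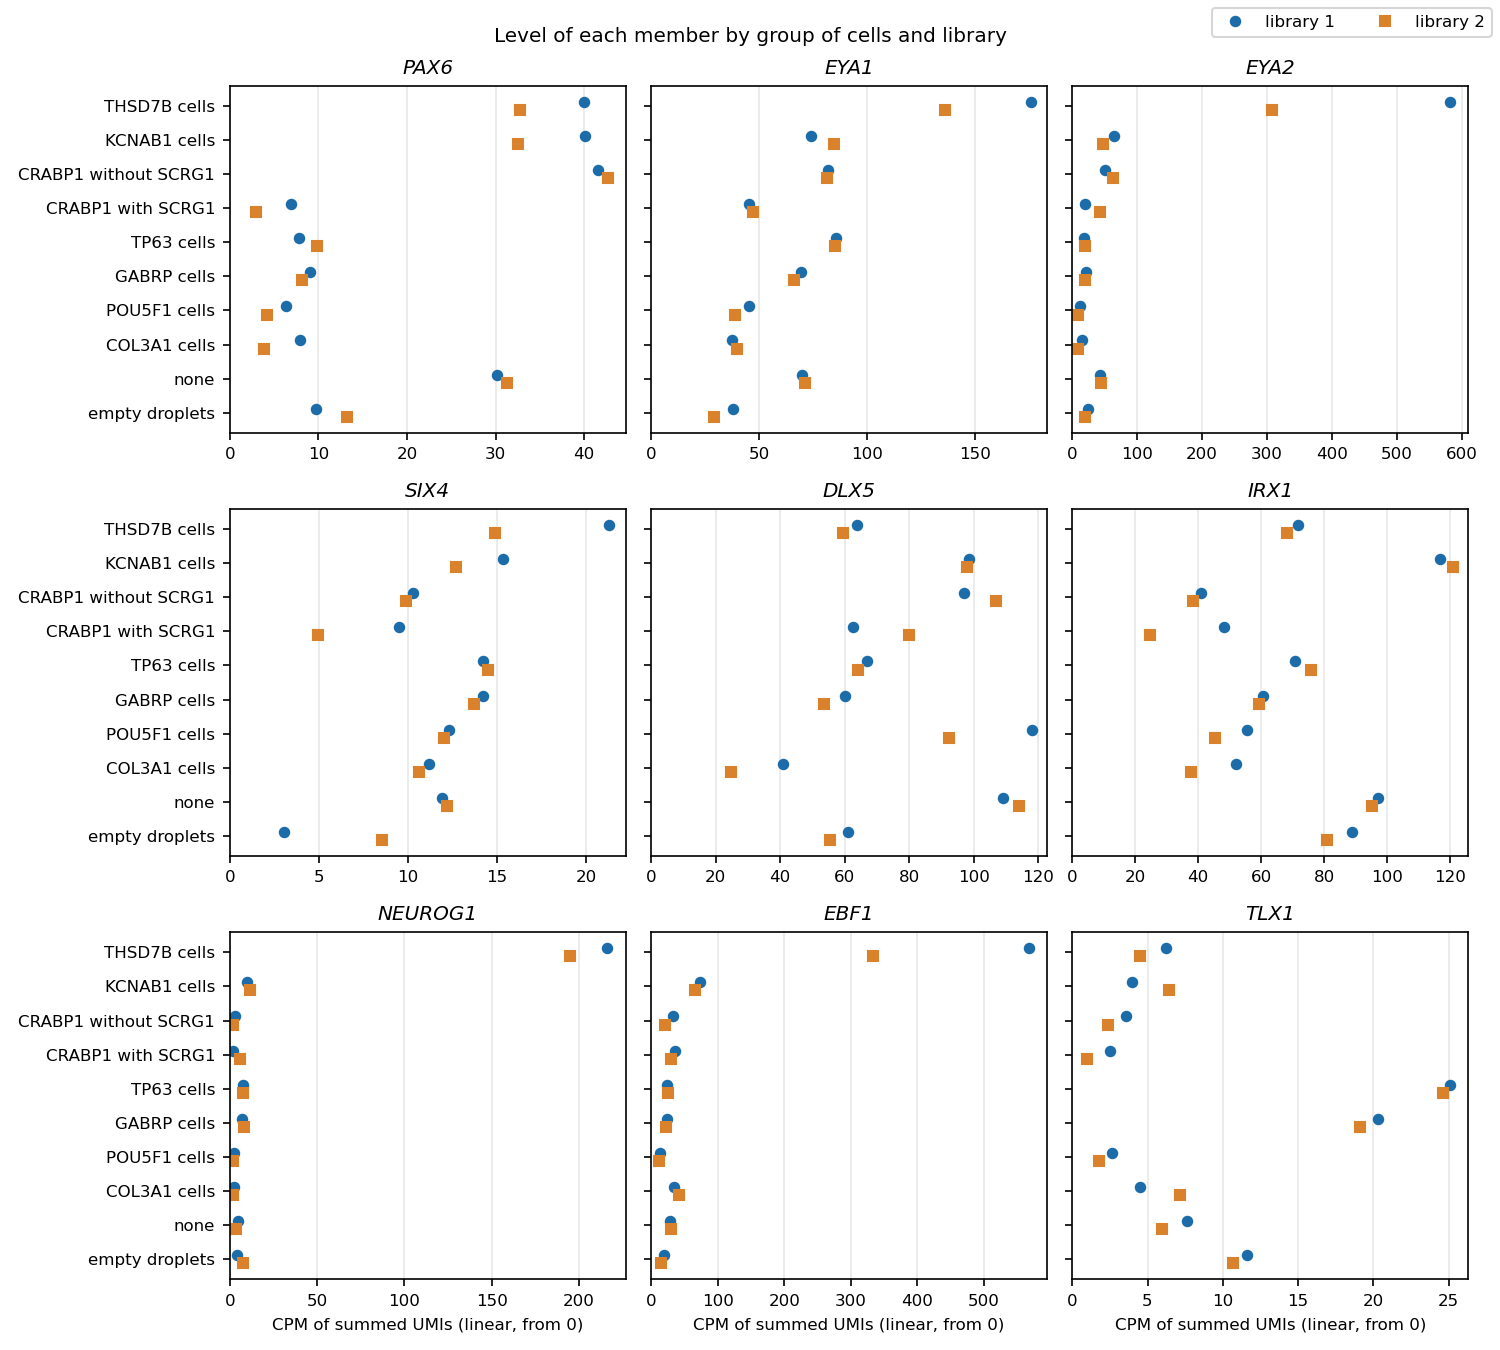
CPM of each of the 9 genes (linear x axes from 0, each with its own range) in 10 groups, with circles for library 1 and squares for library 2. NEUROG1, EBF1, EYA2 and EYA1 stand farthest right in THSD7B cells, TLX1 in TP63 and GABRP cells, and IRX1 in KCNAB1 cells.

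NEUROG1 was at 216 and 195 CPM in THSD7B cells (206 ± 14.6, SD, n = 2 libraries) and at 4.78 and 3.25 CPM in the reference. The next group was the KCNAB1 cells (at least 5 UMIs of KCNAB1) at 10.1 and 11.8 CPM, and every other group was between 1.60 and 7.88 CPM. THSD7B cells were thus far above all other groups in both libraries, and the libraries differed little from each other. NEUROG1 had a UMI in 65.6% (40 of 61 cells, exact 95% interval 52.3% to 77.3%) and 64.5% (51.3% to 76.3%) of THSD7B cells, against 3.87% and 1.38% of COL3A1 cells (at least 10 UMIs), a mesenchymal kind of cell that should lack it. With each cell thinned to 9000 UMIs the shares were 62.3% and 58.1% in THSD7B cells and 1.08% and 0.459% in COL3A1 cells. Empty droplets, barcodes of 10 to 100 UMIs that hold free RNA, carried NEUROG1 at 4.27 and 7.68 CPM, and intervals here cover counting error only.

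EBF1 was at 567 and 334 CPM in THSD7B cells (450 ± 165), 28.5 and 30.4 CPM in the reference and 73.7 and 66.2 CPM in KCNAB1 cells. EBF1 was again highest in THSD7B cells, but the libraries lay 1.7 times apart there. Its share of THSD7B cells with a UMI was 80.3% and 71.0%. Between 24.0% and 61.8% of the cells in KCNAB1, COL3A1, POU5F1, TP63 and GABRP groups and the reference had a UMI as well, so detection alone separates the groups less for EBF1 than for NEUROG1. In COL3A1 cells EBF1, which is also known from mesenchymal precursors, was at 34.0 and 41.7 CPM, and in empty droplets at 20.1 and 15.4 CPM.

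EYA2, a cofactor of SIX4 and its relatives, was at 581 and 308 CPM in THSD7B cells (444 ± 193) and at 43.4 and 44.8 CPM in the reference. Its groups stood in the order THSD7B, then CRABP1 cells without SCRG1 (51.1 and 62.7 CPM) and KCNAB1 (63.9 and 47.3 CPM), which overlapped, then the reference. In TP63 (17.8 and 19.4), GABRP (21.2 and 19.6), COL3A1 (14.3 and 9.57) and POU5F1 cells (11.6 and 8.74 CPM) the summed level of EYA2 was at or below that of empty droplets, 24.4 and 20.0 CPM. Single cells still held up to 29 and 38 EYA2 UMIs in the TP63 group and 56 and 51 in the GABRP group. EYA2 was detected in 75.4% and 72.6% of THSD7B cells, and in 31.6% and 33.4% of the reference.

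EYA1, the paralog of EYA2, had a smaller difference. It was at 176 and 136 CPM in THSD7B cells (156 ± 28.5) and at 69.7 and 71.3 CPM in the reference. TP63 cells (85.8 and 85.4), KCNAB1 cells (74.2 and 84.6) and CRABP1 cells without SCRG1 (81.8 and 81.4 CPM) came next and overlapped or nearly so, while POU5F1 (45.5 and 38.8) and COL3A1 cells (37.7 and 39.6 CPM) were lowest, near the 37.8 and 29.0 CPM of empty droplets. EYA1 had a UMI in 86.9% and 90.3% of THSD7B cells and in 63.6% and 63.5% of the reference.

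The steps of the THSD7B count show how the trio is tied to the gate. NEUROG1 was at 13.2 and 14.3 CPM in cells with 2 THSD7B UMIs, just outside the gate, at 83.6 and 21.0 CPM with 3, just inside, at 206 and 194 CPM with 4 to 9, and at 367 and 470 CPM with 10 or more. EBF1 went over the same steps from 35.8 and 37.4 CPM to 243 and 72.8, then 292 and 289, then 1186 and 803 CPM. For EYA2 the values were 35.8 and 69.1, 200 and 67.9, 327 and 212, and 1240 and 812 CPM. All 3 were higher at each step above 3 UMIs. The cells with exactly 3, 17 and 18 in number, differed most between libraries as a ratio, though not in CPM. DLX5 ran the other way, from 89.8 and 95.8 CPM in cells with no THSD7B UMI to 42.9 and 36.8 CPM in those with 10 or more.

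**Figure D2:**
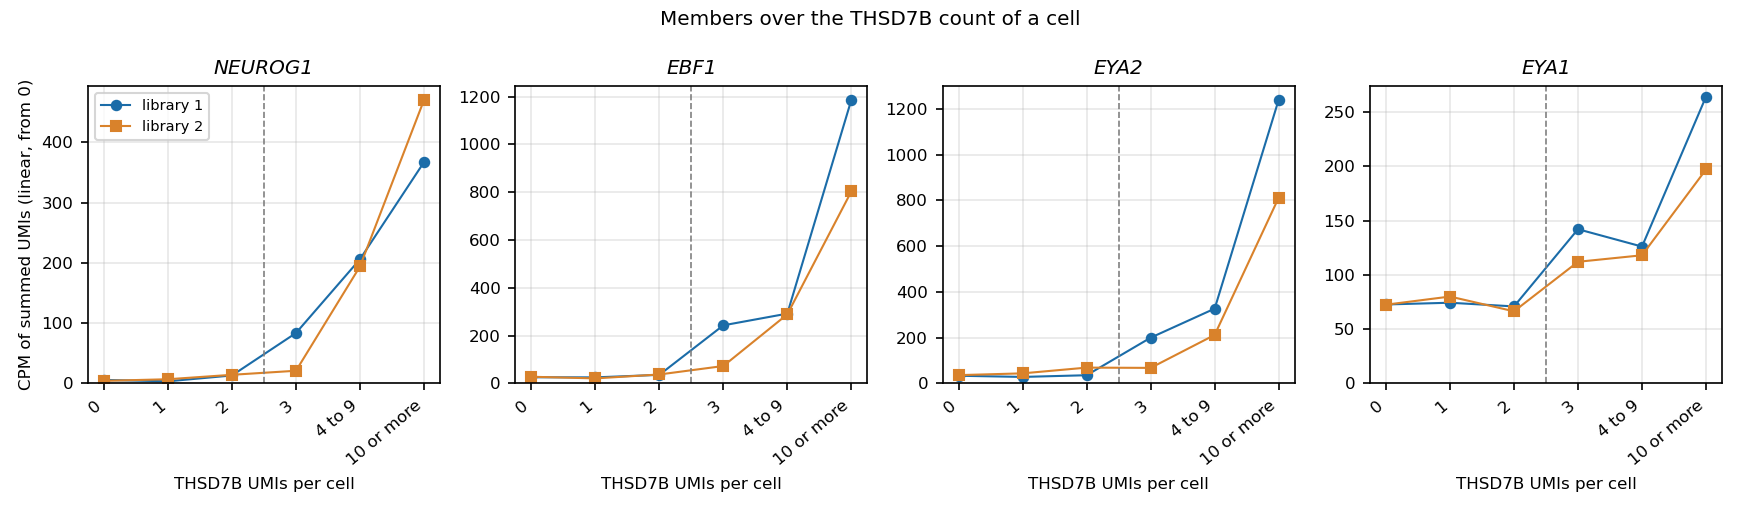
CPM of NEUROG1, EBF1, EYA2 and EYA1 (linear y axes from 0) in cells grouped by their THSD7B UMIs, with the gate as a dashed line, circles for library 1 and squares for library 2. The levels are low below 3 UMIs and highest at 10 or more, where EYA2 reached 1240 and 812 CPM.

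Within the THSD7B cells the whole trio was most often present. All of NEUROG1, EBF1 and EYA2 had a UMI in 38 of 61 and 38 of 62 cells (62.3% and 61.3%). Another 15 and 14 cells had 1 or 2 of the 3, and 8 and 10 had none. In the reference 1.65% and 1.40% of cells had all 3. EBF1 was found in 95.0% and 97.5% of THSD7B cells with NEUROG1 and in 52.4% and 22.7% of those without (thinned, 97.4% and 97.2% against 30.4% and 19.2%). NEUROG1 was found in 87.0% and 84.4% of cells with EYA2 and in 0% and 11.8% of the 15 and 17 without. A count of 0 of 15 still allows a share of up to about 20.0% (3 counts of the total, a rough limit and not an exact interval). DLX5 went the other way: EBF1 was found in 69.7% and 48.4% of THSD7B cells with DLX5 and in 92.9% and 93.5% of those without.

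The 38 and 38 cells with the whole trio had a median of 15.5 and 10.5 THSD7B UMIs and were shallow, at 20194 and 17169 UMIs. The 8 and 10 with none had a median of 3 THSD7B UMIs, at the gate, and were deeper, at 38060 and 53380 UMIs. NEUROD1, the bHLH factor that follows NEUROG1, was at 160 and 142 CPM in cells with the trio and had 0 UMIs in those with none. NEFM, a neurofilament, was at 126 and 134 CPM against 6.96 and 1.89 CPM, the latter from only 2 and 1 UMIs. PAX6 was at 65.3 and 63.1 CPM with the trio, against 31.3 CPM (9 UMIs in 12.5% of the 8 cells) and 0 CPM. DLX5 was at 47.1 and 32.1 against 90.5 and 124 CPM. Of the THSD7B cells, 7 and 5 had a high doublet score (9.76% of both libraries' cells against 6.23% of all cells), among them 3 and 3 of the cells with the trio. Without the high scores the trio was still at least 4-fold higher in both libraries, with NEUROG1 at 219, EBF1 at 484 and EYA2 at 482 CPM as means.

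Most NEUROG1 RNA lay outside the THSD7B cells. They held 22.2% and 25.2% of all NEUROG1 UMIs in 0.758% and 0.759% of all UMIs, 14.4% and 8.44% of EBF1 and 11.8% and 6.02% of EYA2. Of 177 and 155 cells with at least 3 NEUROG1 UMIs, 131 and 107 had no THSD7B UMI, and these held 56.7% and 48.7% of NEUROG1. These cells differ from the 38 and 37 that passed the THSD7B gate. TP63, a factor of surface ectoderm, was at 170 and 126 CPM in them against 8.66 and 37.3 CPM, and KCNAB1 at 44.7 and 61.6 against 18.3 and 7.05 CPM. NEUROD1 was at 16.9 and 16.9 CPM against 159 and 137, INSM1, a zinc finger factor of newborn neurons, at 10.6 and 7.54 against 107 and 67.5, and ELAVL4, a neuronal RNA-binding protein, at 10.9 and 8.21 against 89.5 and 45.3 CPM. Among the 9 genes EBF1 (124 and 94.9 against 960 and 609 CPM) and EYA2 (154 and 140 against 1000 and 561 CPM) were lower without THSD7B, though above the reference. DLX5 was higher without THSD7B, at 75.8 and 80.5 against 50.0 and 34.3 CPM. This division was made after the values were seen.

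**Figure D3:**
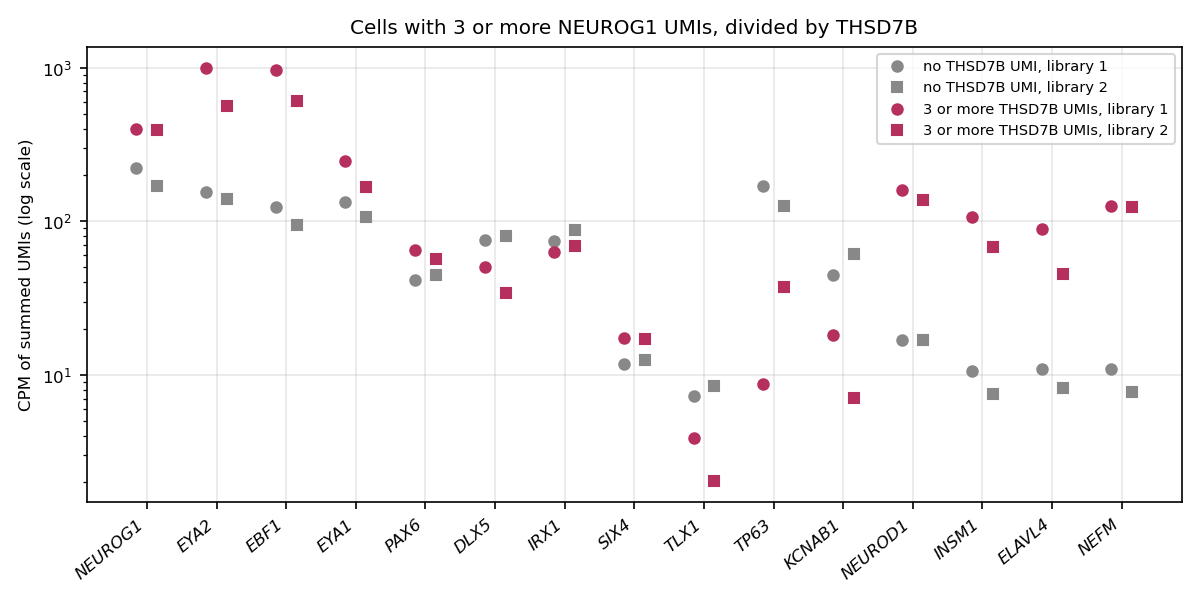
CPM (log y axis) of the 9 genes and of 6 others in cells with 3 or more NEUROG1 UMIs, grey with no THSD7B UMI and red with 3 or more, circles for library 1 and squares for library 2. NEUROD1, INSM1, ELAVL4 and NEFM are higher in red in both libraries, and TP63 and KCNAB1 in grey.

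Over all called cells, THSD7B cells included, NEUROG1 was highest at middle GABRP counts. It was at 3.77 and 2.19 CPM with no GABRP UMI, 18.0 and 13.5 CPM with 7 to 9, just outside that gate, 16.8 and 20.6 CPM with 10 to 12, just inside, and 2.43 and 3.98 CPM with 30 or more. In both libraries the middle steps were above both ends. With the THSD7B cells left out it was lower, and both middle steps were again above both ends in each library, at 2.67 and 1.45 CPM with no GABRP UMI, 14.0 and 10.7 CPM with 7 to 9 and 2.12 and 2.71 CPM with 30 or more. EBF1 over all called cells went from 30.8 and 29.6 over 38.3 and 40.0 to 14.6 and 12.6 CPM, and without the THSD7B cells it was at 27.6 and 28.6, 27.3 and 33.1, and 12.7 and 10.6 CPM at 0, 10 to 12, and 30 or more GABRP UMIs.

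TLX1 was highest in TP63 and GABRP cells. It was at 25.1 and 24.6 CPM in TP63 cells (24.8 ± 0.323 CPM), 20.3 and 19.1 CPM in GABRP cells (19.7 ± 0.836), 7.60 and 5.93 CPM in the reference and 6.23 and 4.47 CPM in THSD7B cells. TP63 and GABRP cells, which share many cells, were above every other group in both libraries, and the TP63 values did not overlap those of GABRP. Over the reference TLX1 was 3.30- and 4.15-fold in TP63 cells, so library 2 alone would have counted it at 4-fold, and 2.67- and 3.22-fold in GABRP cells. All other groups were at or below the 11.6 and 10.7 CPM of empty droplets in their summed level, though single cells of the reference held up to 10 and 15 TLX1 UMIs. TLX1 had a UMI in 39.4% and 40.6% of TP63 cells, 11.7% and 9.99% of the reference and 7.86% and 5.27% of POU5F1 cells (at least 10 UMIs of POU5F1, a pluripotency factor). Thinned to 9000 UMIs, the shares were 17.5% and 17.9% in TP63 cells and 6.23% and 4.91% in the reference. TP63 cells held 55.6% and 53.5% of TLX1 UMIs in 29.8% and 24.1% of all UMIs.

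Along the TP63 count TLX1 was at 4.64 and 3.29 CPM with 0 UMIs, 12.6 and 11.1 with 1, 20.3 and 21.0 with 3, just outside the gate, 26.9 and 23.4 with 4, just inside, and 23.4 and 25.7 CPM with 10 or more. The level no longer differed clearly from 4 UMIs up. Over the GABRP count TLX1 was at 6.97 and 5.96 CPM with 0 UMIs and 29.7 and 24.0 CPM with 10 to 12. With 30 or more GABRP UMIs it was lower again, at 12.2 and 13.9 CPM. PAX6 was lower at the highest TP63 counts, at 32.0 and 32.0 CPM with 0 and 5.30 and 6.08 CPM with 10 or more, but not at each step: in library 2 it was at 11.9 CPM with 2 UMIs, 16.9 with 3 and 20.1 with 4. EYA2 was at 51.2 and 50.2 CPM with 0 and 16.7 and 18.2 CPM with 10 or more. Cells with at least 3 TLX1 UMIs, 486 and 390, had PAX6 at 3.51 and 4.86 CPM and EYA2 at 6.75 and 6.16 CPM. Cells with no TLX1 UMI had PAX6 at 26.2 and 28.2 and EYA2 at 43.4 and 45.0 CPM. TLX1 cells were thus low in both genes in both libraries, below the level of empty droplets, and 57.8% and 58.2% of them passed the TP63 gate.

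**Figure D4:**
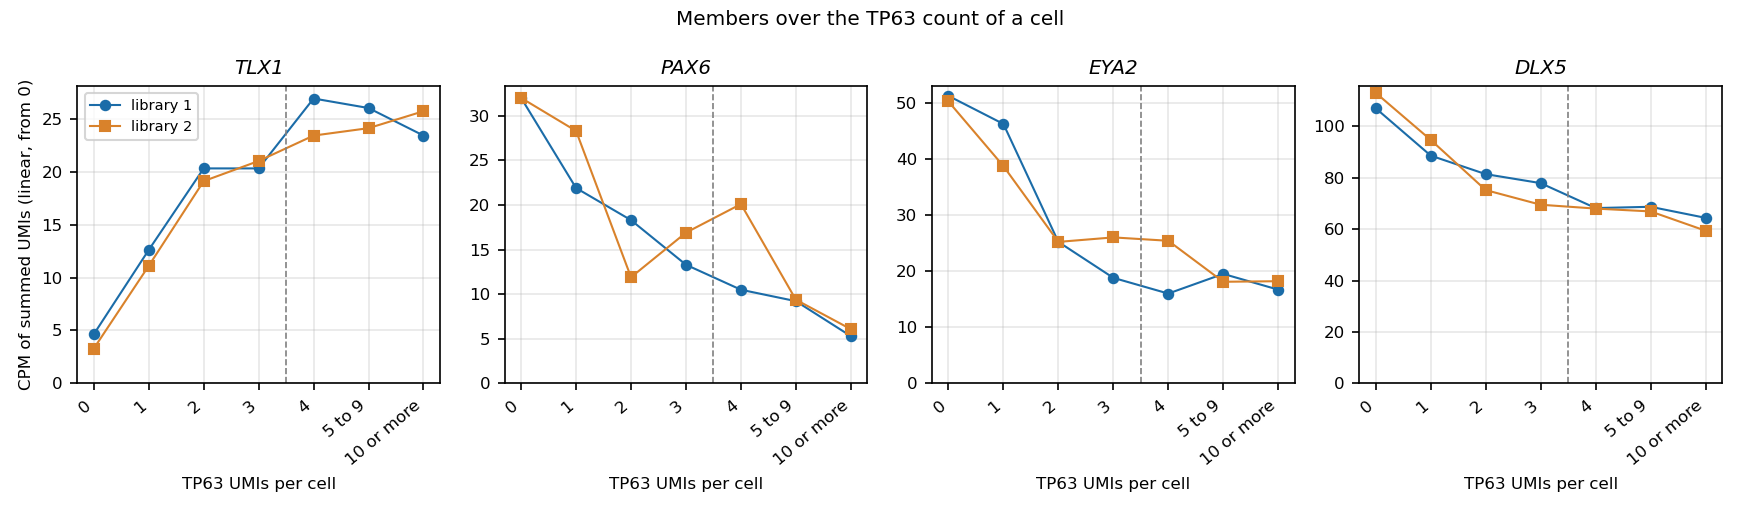
CPM of TLX1, PAX6, EYA2 and DLX5 (linear y axes from 0) in cells grouped by their TP63 UMIs, with the gate as a dashed line, circles for library 1 and squares for library 2. TLX1 is highest from 4 UMIs up, while PAX6 is lowest at 10 or more, at 5.30 and 6.08 CPM.

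PAX6 was at 40.0 and 32.8 CPM in THSD7B cells (36.4 ± 5.07), 40.1 and 32.5 CPM in KCNAB1 cells, 41.5 and 42.7 CPM in CRABP1 cells without SCRG1 and 30.1 and 31.3 CPM in the reference. THSD7B and KCNAB1 cells did not differ beyond the spread, and both library 2 values lay close to the reference. TP63 (7.81 and 9.88), GABRP (9.04 and 8.18), COL3A1 (7.87 and 3.88) and POU5F1 cells (6.34 and 4.18 CPM) were all lower. Their summed levels were at or below the 9.76 and 13.2 CPM of empty droplets, though single TP63 and GABRP cells held up to 24 and 21 PAX6 UMIs. CRABP1 cells divided by SCRG1, a gene of crest-derived glia (at least 3 UMIs), were unlike: the 39 and 33 with it had PAX6 at 6.96 and 2.96 CPM and the 260 and 425 without it as given above. The reference held 75.5% and 77.6% of PAX6 UMIs in 54.8% and 60.4% of all UMIs.

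PAX6 and EYA2 went together across all cells. The 648 and 770 cells with at least 3 PAX6 UMIs had EYA2 at 170 and 164 CPM, against 15.2 and 16.4 CPM in cells with no PAX6 UMI, and EYA2 had a UMI in 87.3% and 88.1% of them against 17.4% and 19.5%. EBF1 was at 78.5 and 83.8 against 20.5 and 20.3 CPM in the same cells. NEUROG1 was at 14.3 and 11.0 against 5.02 and 4.60 CPM. THSD7B cells made up 1.39% and 0.779% of the PAX6 cells. Cells with 3 or more PAX6 UMIs were deeper, at a median of 35775 and 32597 UMIs against 28863 and 26948.

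DLX5 was highest in the reference (109 and 114 CPM, 112 ± 3.47) and in POU5F1 cells (118 and 92.4 CPM, 105 ± 18.4), which overlapped, as did CRABP1 cells (92.4 and 105) and KCNAB1 cells (98.6 and 98.0 CPM). It was lower in TP63 (66.9 and 64.2), THSD7B (63.8 and 59.6) and GABRP cells (60.2 and 53.5 CPM), all near the 61.0 and 55.5 CPM of empty droplets, and lowest in COL3A1 cells (40.8 and 24.8 CPM). DLX5 in THSD7B cells was below the reference in both libraries.

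IRX1 was highest in KCNAB1 cells (117 and 121 CPM, 119 ± 2.88), followed by the reference (97.2 and 95.4 CPM, 96.3 ± 1.31). Their values did not overlap, although they share cells. TP63 (70.8 and 75.8) and THSD7B cells (71.6 and 68.1) overlapped, GABRP cells (60.7 and 59.3) lay lower, and CRABP1 cells (41.8 and 37.5 CPM) were below the 89.0 and 81.0 CPM of empty droplets by the widest gap among the 4 gates. IRX1 was lower at the highest CRABP1 counts, going from 84.9 and 87.2 CPM with 0 to 4 UMIs over 80.7 and 51.1 with 10 to 14, just outside the gate, and 68.0 and 57.2 with 15 to 19, just inside, to 27.6 and 26.0 CPM with 50 or more, so in library 2 the step just inside the gate was above the step just outside. PAX6 was highest with 50 or more CRABP1 UMIs, at 57.1 and 52.7 CPM.

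SIX4 was the flattest of the genes. It was at 21.3 and 14.9 CPM in THSD7B cells (18.1 ± 4.51), 14.2 and 14.5 in TP63, 14.2 and 13.7 in GABRP, 10.2 and 9.56 in CRABP1 cells and 11.9 and 12.2 CPM in the reference. The THSD7B values rest on 22 and 23 cells with a UMI, and the library 2 value is 1.22 times that of the reference. In empty droplets SIX4 was at 3.05 and 8.53 CPM. No gene had a Pearson r over cells of at least 0.2 with SIX4, the highest being 0.08.

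A THSD7B cell had a UMI of 5.18 and 4.92 of the 9 genes on average (5.05 ± 0.185), a KCNAB1 cell of 4.48 and 4.53, a TP63 cell of 3.77 and 3.85, a reference cell of 3.33 and 3.34 and a COL3A1 cell of 2.22 and 1.80. The number depends on depth: thinned to 9000 UMIs it was 3.80 and 3.55 in THSD7B cells and 1.91 and 1.99 in the reference. Thinned values were 2.44 and 2.42 in KCNAB1 cells, 1.82 and 1.88 in TP63 cells and 0.926 and 0.885 in COL3A1 cells. At equal depth TP63 cells were thus not above the reference.

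Likeness over all called cells was measured as Pearson r of log-scaled counts, the lower of both libraries, over 16609 genes with a UMI in at least 1% of cells of each library. It is a description over cells that share a library and differ in depth. Among the 9 genes the highest value was 0.59, between PAX6 and EYA2, followed by EYA2 with EBF1 (0.43). NEUROG1 was most like NEUROD1 (0.62), then WSCD1 (0.49), INSM1 (0.47), HPCA (0.46) and EBF3 (0.46). EBF1 was most like EYA2, ROBO2 (0.37), NEUROD1 (0.36), NEUROG1 (0.35) and INSM1 (0.33). Those of PAX6 after EYA2 were LMO3 (0.47), SHISA2 (0.46), ELP4 (0.46) and NRXN3 (0.42), and EYA2 shared LMO3 (0.44) and NRXN3 (0.43) and added CADM1 (0.43). TLX1 stood with PDE3A (0.39), SNAP91 (0.38), NTRK2 (0.38), SULF1 (0.37) and ISL1 (0.36), of which NTRK2 is a neurotrophin receptor and ISL1 a homeobox factor. EYA1 was most like ROR2 (0.38), MAP2 (0.36), SSBP2 (0.33), LOC100512907 (0.33) and PCDH11X (0.31). DLX5 was most like DYNC1I1 (0.44), CXCL12 (0.38), CLDN10 (0.36), CYP1A1 (0.35) and PEBP1 (0.32). IRX1 was most like LRRC7 (0.38), GALNT3 (0.38), IRX2 (0.37), CXCL12 (0.36) and GLI3 (0.35).

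Some of the genes most alike lie beside the member on the chromosome. Of the 10 highest for each of the 9 genes, 90 pairs in all, 4 (4.44%) lay within 1 Mb of each other, where 0.0990% of all 148437 pairs of a member and an eligible gene did. ELP4 (chr2:29006456-29230092, − strand) ends 5307 bp from PAX6, the nearest coding gene to it. DYNC1I1 (chr9:75414663-75760527, + strand) lies 879388 bp from DLX5, and IRX2 (chr16:78305869-78322776, + strand) 604780 bp from IRX1. KAZALD1 (chr14:112142746-112146538, + strand), the 10th for TLX1 at r = 0.33 and named after its value was seen, lies 60426 bp away and is the nearest coding gene. None of the 4 overlaps its member in the annotation.

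Of the other genes of sensory neurogenesis, 28 of 34 listed could be compared (at least 100 UMIs). In THSD7B cells 14 of the 28 were at least 4-fold higher than in the reference (1.44% of all genes were), with a median fold of 3.93: NEUROD1, NEUROD4, NHLH1, PRDM12, EBF2, EBF3, INSM1, DLL1, HES6, ELAVL4, DCX, GAP43, GAL and NEFM. NEUROD4 was at 54.5 and 31.8 CPM against 0.194 and 0.0813, NEUROD1 at 90.8 and 68.1 against 0.402 and 0.344, INSM1 at 57.6 and 37.8 against 0.517 and 0.313, GAL, a neuropeptide, at 282 and 250 against 8.25 and 7.83, and EBF3, a paralog of EBF1, at 82.5 and 54.7 against 2.30 and 1.76 CPM. These genes were higher in THSD7B cells in both libraries, as the trio was. This list and the gene lists below were chosen with earlier results of these data known, so nothing is read from their counts. In CRABP1, TP63 and GABRP cells 0 of the 28 reached 4-fold. The groups with TLX1 differed in NTRK2, at 1347 and 1270 CPM in TP63 and 1295 and 1215 in GABRP cells against 536 and 474 CPM, and in ISL1, at 87.9 and 76.5 and at 99.0 and 91.6 against 36.8 and 26.8 CPM. Among list genes with at least 10 CPM, these had the largest folds there. The median fold of the list was below that over all genes tested in both groups. Summed over the list, the level was higher, at 1640 and 1543 CPM in TP63 and 1588 and 1499 CPM in GABRP cells. The reference was at 833 and 762 CPM, and NTRK2 made up most of each of these sums.

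Of 22 other preplacodal and placode genes that could be compared, EYA4, PAX3 and SOX3 were among those at least 4-fold higher in THSD7B cells, with a median fold of 0.798 over the list. Among all genes compared, 1.44% were in THSD7B cells, 1.06% in CRABP1, 0.305% in TP63 and 0.809% in GABRP cells. PAX3, a factor of the ophthalmic trigeminal placode, was at 52.4 and 37.3 against 6.14 and 7.31 CPM. In CRABP1 cells 5 were, namely SIX3, SIX6, PAX2, PAX3 and SOX3, of which SIX6 was at 44.3 and 54.2 against 0.560 and 0.807 CPM, while 0 of the 22 were in TP63 or GABRP cells. Of the relatives of SIX4, SIX6 and SIX3 were thus high in CRABP1 cells, where SIX4 was not.

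Markers of other cell types in these groups were as follows. Of 9 neural crest and glia genes 0 were 4-fold higher in THSD7B, TP63 or GABRP cells, while SOX10, FOXD3, TFAP2B and SCRG1 were among those in CRABP1 cells. Of 10 anterior neural genes 1, LHX2 (119 and 90.5 against 10.1 and 11.0 CPM), was in THSD7B cells and 6 in CRABP1 cells, with 0 in the others. Of 8 amnion genes GABRP and VTCN1 were 4-fold higher in THSD7B and in TP63 cells, VTCN1 and WNT6 in GABRP cells, and 0 in CRABP1 cells. In library 2 VTCN1 had 8, 5 and 32 UMIs in THSD7B cells with all, 1 or 2 and none of the trio. The 32 UMIs lay in 10.0% of 10 cells, so the VTCN1 level of THSD7B cells there rests mostly on a single cell. GABRP, the subunit of a GABA receptor, was at 219 and 283 CPM in THSD7B cells against 44.1 and 48.8 CPM. The reference leaves out cells past the GABRP and TP63 gates, so its level of either gene is low by definition. In the 6925 and 7767 cells with no NEUROG1 UMI, whatever their GABRP count, GABRP was at 216 and 195 CPM. Of the surface ectoderm genes 0 were in THSD7B or TP63 cells, 1 in CRABP1 cells (GRHL3) and 2 in GABRP cells (TP63, itself a gate gene, and WNT6). Of 7 mesenchyme and 6 pluripotency genes 0 were in any of the 4 groups. The shares of all genes were 1.44% in THSD7B, 1.06% in CRABP1, 0.305% in TP63 and 0.809% in GABRP cells. At such shares 0 of so short a list is not read as a result. The median fold of the 8 amnion genes in THSD7B cells was 0.836, against 0.861 over all genes compared. Summed over the list they were at 483 and 532 CPM in THSD7B cells and 324 and 278 CPM in the reference, and without GABRP at 264 and 249 against 280 and 229 CPM. Mesenchyme genes summed to 330 and 237 against 587 and 341 CPM. The part of these markers in the levels of the trio was not tested.

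In the bulk pESC columns SIX4 was the highest of the 9 genes per transcript length, at 6.39, 9.44 and 7.39 FPKM in the columns in the order named above (7.74 ± 1.56 FPKM, SD, n = 3). IRX1 was at 1.55, 1.67 and 6.71 FPKM (3.31 ± 2.94) and DLX5 at 0.917, 0.443 and 1.68 FPKM (1.01 ± 0.625). These 3 had a mean of at least 1 FPKM, as did 39.2% of all 29886 symbols. In each column SIX4 was above IRX1 and IRX1 above DLX5, while the ranges over the columns overlapped for both pairs.

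EYA2 was at 0.230, 0.202 and 1.95 FPKM, EYA1 at 0.172, 0.241 and 0.696, EBF1 at 0.110, 0.0892 and 0.373 and PAX6 at 0.0436, 0.101 and 0.148 FPKM. NEUROG1 was at 0.0796, 0.0656 and 0.0138 FPKM, and TLX1 was listed at 0 in all 3. PAP25 was highest for 6 of the 9 genes, and for 25.1% of all 29886 symbols, those listed at 0 throughout included. EYA2 in PAP25 came nearly all from 1 of its 7 annotated transcripts, at 1.83 FPKM, which was listed at 0 in the other columns. POU5F1, the pluripotency factor, was at 639, 506 and 432 FPKM. The depth of these columns is not known, bulk and droplet values are on different scales and were not compared, and in bulk fewer cells that use a gene and less RNA per cell cannot be told apart.

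**Figure D5:**
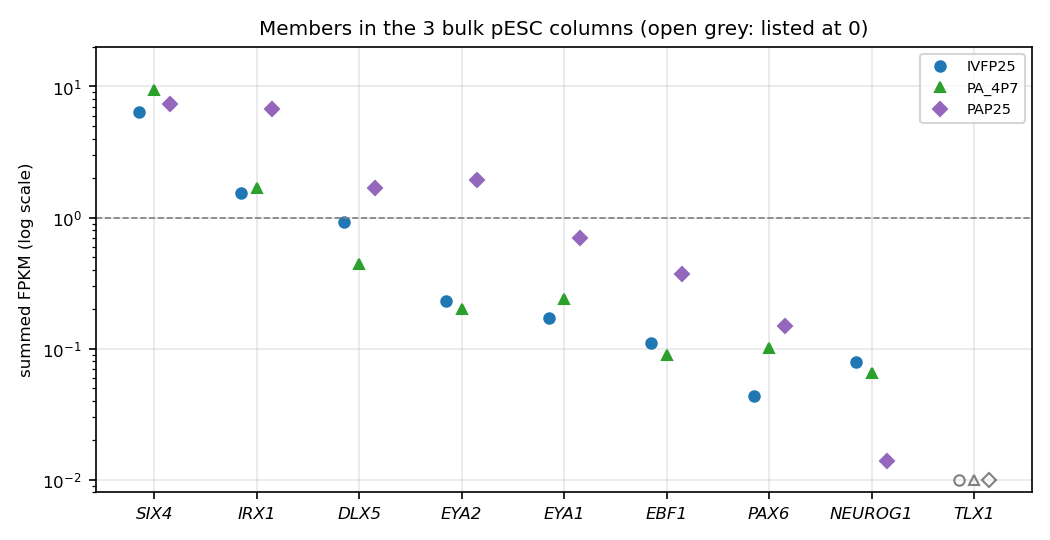
FPKM of the 9 genes summed over transcripts (log y axis) in the 3 bulk pESC columns, each with its own symbol, with a dashed line at 1 FPKM and open grey symbols for TLX1, listed at 0. SIX4 is between 6.39 and 9.44 FPKM, and NEUROG1 between 0.0138 and 0.0796 FPKM.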

How the data were processed

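Droplet libraries of day 6 blastoids and bulk RNA of pESCs were measured. The deposited counts are UMI counts of every barcode, made by the authors with Cell Ranger 7.1.0 on susScr11. Whether intronic reads were counted is not given in the sources used here. The deposited FPKM values, made by the authors with Trim Galore 0.6.4, HISAT2 2.2.1 and StringTie 2.2.1, are per transcript and were summed per symbol. Their depth is unknown. The blastoid counts total 289452283 and 302211552 UMIs, with 87.8% and 87.7% in cells.

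The members, gates and gene lists were chosen with earlier results of these data known. Counts were summed per library and gate and divided by all UMIs of the sum, with no test, since members and gates rest on the same cells. A gene counted as higher when it was at least 4-fold above the cells past no gate in both libraries, over genes with at least 100 UMIs. The script was tested on simulated data. Shares have exact Clopper-Pearson intervals (95%). Thinning drew 9000 UMIs per cell, so no cell was left out. Named genes were the 9 members, the gate genes, KCNAB1, COL3A1, POU5F1 and SCRG1, per member the 5 most alike at r of at least 0.2, and up to 5 per list (preplacodal and placode, sensory neurogenesis, neural crest and glia, anterior neural, surface ectoderm, amnion, mesenchyme, pluripotent) with at least 10 CPM. Other list members called at 4-fold were named besides. PAX8, TUBB3 and KRT14 have no row of that name. For doublets, Scrublet was run through scanpy 1.11.5, and its automatic threshold marked 2 and 2 cells. The highest scores at 0.8% per 1000 cells, 434 and 535 cells, were taken instead and removed only in an alternative. Loci and sequences come from RefSeq's Sscrofa11.1, the build of the files, which held 99.4% of the names in the count files. Alternatives changed the gates, the UMI minimum, the reference cells, the fold, the mean over cells, a mitochondrial filter and 1 gate per cell, and left out each library in turn. The 3 FPKM columns are named but not tied to single samples, and 0 other columns of values were left aside. A few items of the lists and 1 sequence are not reported here.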

Additional observations from a re-analysis of the deposited data

Results flagged for a closer look

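A few barcodes below the UMI minimum, which enter the report's levels only under the alternative of at least 1000 UMIs per cell, had at least 3 THSD7B UMIs, and most of them had UMIs of EYA2 and EBF1. In the 7 such barcodes of library 1 NEUROG1 was at 266 CPM, EBF1 at 1596 CPM and EYA2 at 1719 CPM, against 4.27, 20.1 and 24.4 CPM in the empty droplets of that library. In the 6 of library 2 NEUROG1 was at 486 CPM, EBF1 at 2156 CPM and EYA2 at 1458 CPM, against 7.68, 15.4 and 20.0 CPM. They were flagged as a signal in data outside the main comparisons, above the level in empty droplets. These barcodes were picked by their THSD7B count, as the THSD7B cells were, and the empty droplets were not. NEUROG1 had a UMI in 3 of the 7 and 3 of the 6 barcodes, EBF1 in 6 and 4 and EYA2 in 5 and 6, so each level rests on few barcodes. In library 1 a single barcode held 47 of the 84 EYA2 UMIs, and a single barcode held 37 of the 78 EBF1 UMIs. Their median depth was 7982 and 5124 UMIs. The other barcodes below the minimum, 3101 and 3655 with at least 1000 UMIs, had NEUROG1 at 7.61 and 6.69 CPM, EBF1 at 38.7 and 29.4 CPM and EYA2 at 35.6 and 35.9 CPM.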

How the results depend on the processing

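EYA2, NEUROG1 and EBF1 were at least 4-fold higher in THSD7B cells under each alternative but 1: with at least 20000 UMIs per cell the count was 2. In TP63 cells the count of 0 became 1 with the gate halved, 1 at 2-fold, and ranged from 0 to 1 when a library was left out, with TLX1 at 4.15-fold in library 2 alone. In GABRP cells it became 1 at 2-fold, and in CRABP1 cells it stayed at 0. The mean number of members with a UMI per THSD7B cell, 5.05, was 3.68 with cells thinned to 9000 UMIs, 5.60 with the gate doubled and 4.58 with it halved, and 4.92 to 5.18 with a library left out. With a minimum of 0.1 FPKM 6 members passed in pESCs, and 2 to 4 when a column was left out. Except at 2-fold, the shares of all genes or symbols under these settings are not given here, so nothing is read from the counts. The 36 levels of members in gates moved by more than the SD of the libraries, often a small one, in 28 cases with the gates doubled and 26 with them halved, in 25 with the mean of cell CPM, in 24 with cells past 1 gate only, in 20 without high doublet scores and in 12 with at least 20000 UMIs. The cause was not tested. No paired analysis was possible because the results come from no test and each kind of library is 1 group. Precision is limited by the 61 and 62 THSD7B cells and by 2 libraries.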
